A study of Mus musculus with 6 samples.

Results

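The Schlafen genes of the mouse form a family of related genes in a cluster on chromosome 11, and 7 of them, Slfn1, Slfn2, Slfn3, Slfn4, Slfn5, Slfn8 and Slfn9, were followed here in macrophages. The members were taken by symbol from the 24411 genes listed in each library. They were chosen with earlier results of these libraries known, among them that Slfn4 was one of the largest differences between the groups. Differences of the members between the groups are therefore given as a description, with standard errors and intervals but without p-values. Other rows carrying a Schlafen symbol are Slfn10-ps, a pseudogene, Slfn14, the antisense RNA Slfn5os and Slfnl1, and they are not members.

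RNA sequencing was done on macrophages of 2 groups, with 3 libraries in each. The LFA1-hi macrophages came from bone marrow monocytes sorted as high for both LFA1 and Itgam, and the LFA1-lo macrophages from monocytes sorted as low for both. LFA1 is an adhesion receptor of leukocytes and Itgam encodes a chain of a related receptor. All monocytes were from C57BL/6 mice, an inbred strain, and all were kept for 7 days with M-CSF at 20 ng/ml, the cytokine under which monocytes mature into macrophages, and 10% serum, with a medium change on day 4. The labels name no genetic change and give neither the age of the animals nor the origin of the libraries within a group (1 culture or several). The p-values therefore measure only the spread between these libraries, which may be technical. Summed expected counts were 17614509, 15191262 and 17597781 in LFA1-hi libraries 1, 2 and 3, and 17020599, 16404922 and 17115544 in LFA1-lo libraries 1, 2 and 3. At this depth 3 counts correspond to between 0.170 and 0.198 CPM (counts scaled to a common library total), which covers counting error only.

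Schlafen proteins share an N-terminal core and are grouped by length. The short proteins Slfn1 and Slfn2 consist of little more than that core, Slfn3 and Slfn4 are intermediate, and the long proteins Slfn5, Slfn8 and Slfn9 add a helicase-like C-terminal part. The family was first described in developing mouse thymocytes, and many of its genes are induced by type I interferon. In the mouse, loss of Slfn2 function in the elektra mutant leaves T cells and monocytes unable to hold a resting state, and Slfn4 is induced in macrophages by interferon and by bacterial ligands.

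The family split between the groups. Slfn1, Slfn3, Slfn4 and Slfn9 were higher in LFA1-hi macrophages, and Slfn2, Slfn5 and Slfn8 were lower. In a fit over all genes with edgeR's quasi-likelihood test, with a gene called at a Benjamini-Hochberg adjusted p below 0.05, 4 members were called higher and 3 lower, and the values of 7 of 7 did not overlap between the groups. Because the members were chosen with this contrast known, nothing is read from these counts. Of the 11692 genes tested, 3705 (31.7%) were called, 1883 (16.1%) higher and 1822 (15.6%) lower in LFA1-hi, and 5586 (47.8%) had values that did not overlap between the groups. Higher genes made up 50.8% of all calls, against 60.9% with scaling by library totals and 63.9% on FPKM. The 4 higher and 3 lower members were the same in number under each of the other scalings. In bulk RNA, fewer cells of a type and less RNA per cell cannot be told apart, and this holds for every level below.

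**Figure D1:**
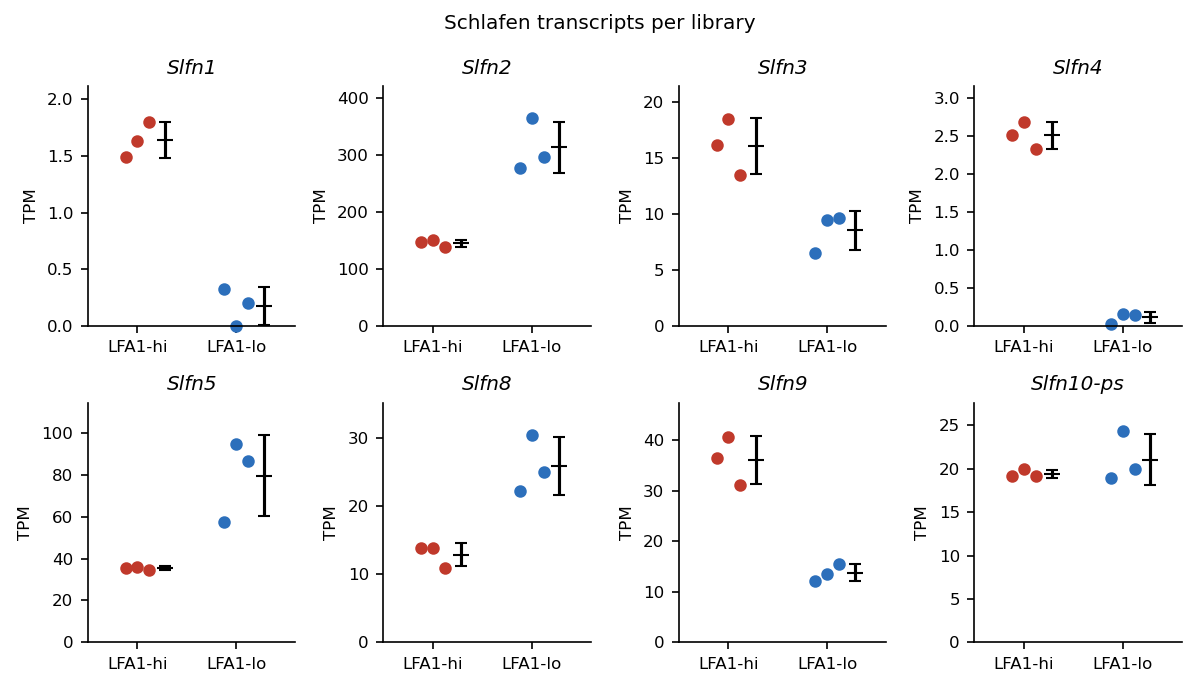
TPM (a level per transcript length, scaled to the library) of 7 Schlafen genes and the pseudogene Slfn10-ps in 3 LFA1-hi libraries (red) and 3 LFA1-lo libraries (blue), with the mean and SD of each group in black. Each panel has its own axis from 0. Slfn1, Slfn3, Slfn4 and Slfn9 lie higher in LFA1-hi, Slfn2, Slfn5 and Slfn8 lie lower, and the Slfn10-ps values of the groups overlap.

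Slfn2, the short member that holds mouse T cells and monocytes at rest and shields transfer RNAs from cleavage in T cells, was the most abundant family member in every library. It reached 146.8, 149.7 and 137.6 TPM in LFA1-hi libraries 1, 2 and 3, and 277.6, 364.1 and 296.8 TPM in LFA1-lo libraries 1, 2 and 3. Every LFA1-lo library lay above every LFA1-hi library. The group means were 144.7 ± 6.36 TPM in LFA1-hi and 312.8 ± 45.5 TPM in LFA1-lo (SD, n = 3 each), and the log2 fold change was -1.10 (SE 0.12, 95% interval -1.36 to -0.83). Among all listed genes Slfn2 ranked between 941 and 1011 by TPM in LFA1-hi libraries and between 391 and 503 in LFA1-lo libraries.

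Slfn1, the other short member, which slows thymocyte growth when overexpressed in mice, was close to the detection limit. Its expected counts were 25, 23 and 30 in LFA1-hi libraries, against 5, 0 and 3 in LFA1-lo libraries. In TPM these are 1.49, 1.63 and 1.80 in LFA1-hi, against 0.33, 0 and 0.20 in LFA1-lo. LFA1-hi libraries held a low but steady level and LFA1-lo libraries held 5 counts or fewer. The sums of 78 and 8 counts give a ratio of LFA1-hi over LFA1-lo of 9.37 after scaling by library size, with an exact counting interval of 4.53 to 22.5 that covers counting error only. The fitted log2 fold change was 3.18 (SE 0.72, 95% interval 1.56 to 4.79), and leaving out a library gave 2.64 to 3.95, the lowest without LFA1-lo library 2 and the highest without LFA1-lo library 1, which held 5 of the 8 counts.

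Slfn4, the intermediate member induced by interferon and bacterial ligands in mouse macrophages, had the largest difference of the family. It had 2.51, 2.69 and 2.33 TPM in LFA1-hi libraries, against 0.03, 0.16 and 0.15 TPM in LFA1-lo libraries. The LFA1-hi values stayed close together and the LFA1-lo values were near 0. Expected counts were 94.9, 86.6 and 89.1 in LFA1-hi libraries, against 1.01, 5.12 and 5.06 in LFA1-lo libraries. The rounded sums of 271 and 11 counts gave a ratio of 23.7, with a counting interval of 13.02 to 48.0, and the fitted log2 fold change was 4.52 (SE 0.46, 95% interval 3.5 to 5.54). Slfn4 had the 5th highest log2 fold change and Slfn1 the 17th highest among the 11692 tested genes. Both passed the filter on low counts, about 10 counts in at least 3 libraries, only through the LFA1-hi libraries, since none of the LFA1-lo libraries reached 0.586 CPM. A gene kept in this way had to differ between the groups. Even in LFA1-hi macrophages the mean of Slfn4, 2.51 ± 0.180 TPM (SD, n = 3), was far below that of Slfn2.

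Slfn3, the intermediate member beside Slfn4 in the genome, studied in rodents for its part in intestinal epithelial differentiation, had a smaller difference in the same direction. It had 16.2, 18.4 and 13.5 TPM in LFA1-hi libraries, against 6.51, 9.44 and 9.63 TPM in LFA1-lo libraries. The groups did not overlap, although LFA1-hi library 3 came nearest to the LFA1-lo range. Means were 16.0 ± 2.48 TPM in LFA1-hi and 8.53 ± 1.75 TPM in LFA1-lo (SD, n = 3 each), and the log2 fold change was 0.92 (SE 0.20, 95% interval 0.47 to 1.38).

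Slfn5, a long member whose human counterpart has been linked to the control of interferon-responsive transcription, was lower in LFA1-hi macrophages. It had 35.7, 36.2 and 34.6 TPM in LFA1-hi libraries, against 57.6, 94.6 and 86.5 TPM in LFA1-lo libraries. The LFA1-hi libraries were nearly equal, while LFA1-lo library 1 stood below the other two of its group. Means were 35.5 ± 0.827 TPM in LFA1-hi and 79.6 ± 19.4 TPM in LFA1-lo (SD, n = 3 each), a log2 fold change of -1.15 (SE 0.18, 95% interval -1.55 to -0.74).

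Slfn8 and Slfn9 are long members that lie next to each other on the minus strand, and forced expression of Slfn8 slows the growth of mouse T cells. Slfn8 had 13.9, 13.8 and 10.9 TPM in LFA1-hi libraries, against 22.2, 30.5 and 25.02 TPM in LFA1-lo libraries. Slfn9 had 36.5, 40.7 and 31.1 TPM in LFA1-hi libraries, against 12.2, 13.6 and 15.6 TPM in LFA1-lo libraries. Neither gene's groups overlapped, and the neighbours differed in opposite directions. The log2 fold change was -1.04 for Slfn8 (SE 0.15, 95% interval -1.38 to -0.71). That of Slfn9 was 1.41 (SE 0.12, 95% interval 1.13 to 1.69). The ratio of Slfn9 to Slfn8 in TPM was 2.63, 2.95 and 2.85 in LFA1-hi libraries, against 0.547, 0.446 and 0.623 in LFA1-lo libraries, so Slfn9 exceeded Slfn8 in every LFA1-hi library and was below it in every LFA1-lo library.

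Slfn10-ps, a pseudogene related to both, had 19.1, 19.9 and 19.1 TPM in LFA1-hi libraries, against 18.9, 24.3 and 19.9 TPM in LFA1-lo libraries. These groups overlapped, and its log2 fold change was -0.09 (SE 0.13, 95% interval -0.38 to 0.19, adjusted p = 0.602 in edgeR). Slfn14, known for ribosome-linked RNA cleavage and for its mutations in human platelet disorders, had 2 counts in LFA1-hi library 2 and 0 in the other libraries. Slfn5os and Slfnl1 had 0 counts in all 6 libraries, which allows up to 0.198 CPM in a library.

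Related copies can share reads, and the files show where that happened. Expected counts of Slfn1 and Slfn5 were whole in all 6 libraries, to within 0.005 of a count, whereas those of Slfn2, Slfn3, Slfn4, Slfn8, Slfn9 and Slfn10-ps were not whole in any of the 6, so reads had been divided between features there. The best local alignments of the transcripts were 94.8% identical over 1673 bases for Slfn3 and Slfn4, and 92.3% identical over 3728 bases for Slfn8 and Slfn9. Stretches of 100 bases shared exactly with any other gene made up 3.53% of the stretches of Slfn8 and 3.90% of those of Slfn9, against 15.03% and 11.9% at 50 bases. For Slfn3 they made up 5.42% at 100 bases and 23.7% at 50 bases, for Slfn4 0.278% and 11.4%, and for Slfn2 0.128% and 4.27%. For Slfn5 they made up 6.85% at 100 bases and 11.8% at 50 bases, all shared with genes outside the family, and those of Slfn3 at 100 bases were also shared with genes outside the family. These shares were counted over all GENCODE M21 transcripts, and the annotation behind the deposited counts may differ. Slfn5 had whole counts in spite of its shared stretches, so the shares do not measure how many reads were divided. The remaining stretches of each gene are its own at those lengths in GENCODE M21, and how the division of shared reads bears on the differences was not tested. Summed over Slfn8, Slfn9 and Slfn10-ps, the level was 139.6, 142.8 and 122.8 CPM in LFA1-hi libraries, against 100.8, 136.3 and 116.7 CPM in LFA1-lo libraries. These sums overlapped, unlike the values of Slfn8 and of Slfn9 alone. Because Slfn8 and Slfn9 differed in opposite directions, their differences cancel in part in a sum however the reads were divided. The overlap therefore says nothing about that division. Summed over Slfn3 and Slfn4, the level was 20.1, 21.7 and 17.2 CPM in LFA1-hi libraries, against 5.73, 8.94 and 8.75 CPM in LFA1-lo libraries, which did not overlap.

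The summed TPM of the 7 members and Slfn10-ps was lower in LFA1-hi macrophages, at 272.2, 283.1 and 250.9 TPM, against 395.3, 536.7 and 453.8 TPM in LFA1-lo macrophages. Slfn2 supplied 53.9% ± 0.976 of this sum in LFA1-hi and 67.8% ± 2.41 in LFA1-lo (SD, n = 3 each). Slfn9 supplied 13.4% ± 0.988 in LFA1-hi and 3.01% ± 0.454 in LFA1-lo. The shares of Slfn5 were 13.2% in LFA1-hi and 17.1% in LFA1-lo, and those of Slfn3 were 5.94% in LFA1-hi and 1.84% in LFA1-lo. Shares of one sum depend on one another, since a larger share of Slfn2 leaves less for the rest.

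**Figure D2:**
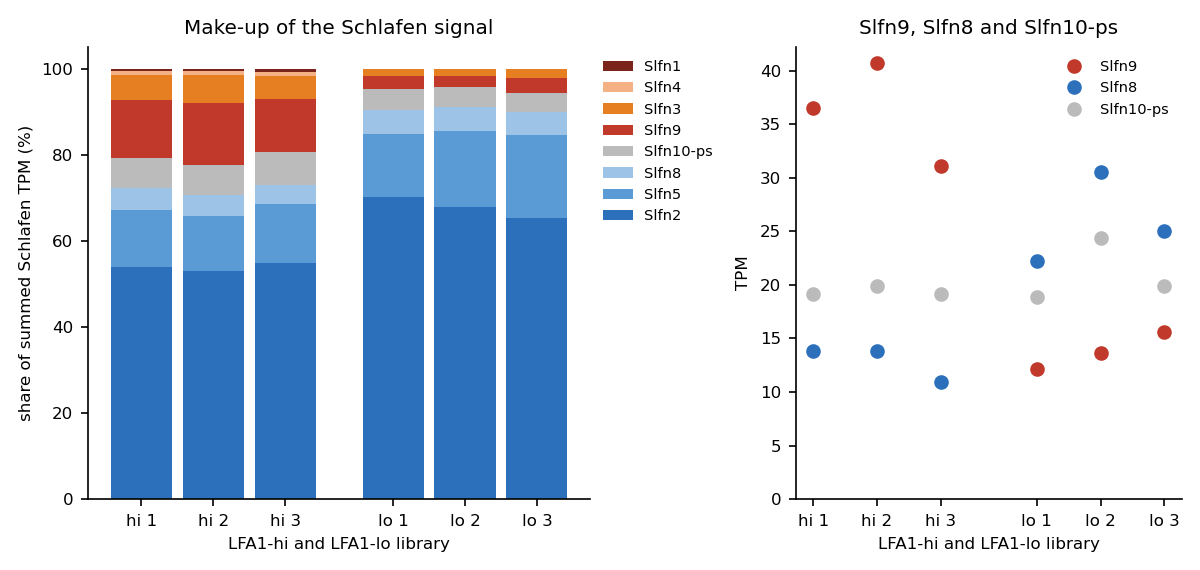
Left, share (%) of each Schlafen gene in the summed TPM of 8 rows, for the 3 LFA1-hi libraries (hi 1 to hi 3) and the 3 LFA1-lo libraries (lo 1 to lo 3). Right, TPM of Slfn9, Slfn8 and Slfn10-ps in the same libraries: Slfn9 lies above Slfn8 in each LFA1-hi library and below it in each LFA1-lo library, with Slfn10-ps between them.

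By level per length, the order in LFA1-hi libraries 1 and 2 was Slfn2, Slfn9, Slfn5, Slfn10-ps, Slfn3, Slfn8, Slfn4 and Slfn1. In LFA1-hi library 3 Slfn5 exceeded Slfn9, and the means of 36.1 ± 4.81 TPM for Slfn9 and 35.5 ± 0.827 TPM for Slfn5 in LFA1-hi did not differ beyond their spread. In all 3 LFA1-lo libraries the order began with Slfn2, Slfn5, Slfn8, Slfn10-ps, Slfn9 and Slfn3. Slfn1 and Slfn4 came last there and changed places between libraries. Slfn8 (25.9 ± 4.22 TPM) and Slfn10-ps (21.05 ± 2.90 TPM) in LFA1-lo differed by less than the sum of their SDs (n = 3), with Slfn8 above in each LFA1-lo library. Within the family, Slfn8 and Slfn5 kept their relation to Slfn2: the ratio of Slfn8 to Slfn2 averaged 0.0887 ± 0.00815 in LFA1-hi and 0.0827 ± 0.00235 in LFA1-lo, and that of Slfn5 to Slfn2 averaged 0.245 ± 0.00520 in LFA1-hi and 0.253 ± 0.0423 in LFA1-lo (SD, n = 3 each).

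The cluster spans chr11:82942341-83286726 in GRCm38, which is 344.4 kilobases, from Slfn5os to Slfn14. In order along the chromosome, Slfn5 (start 82951349, end 82964850, plus strand) is followed by Slfn9 (82974316 to 82991830, minus strand), Slfn8 (83002125 to 83020810, minus strand), Slfn10-ps (83028123 to 83040533), Slfn2 (83065112 to 83070678, plus strand), Slfn1 (83116820 to 83122670, plus strand), Slfn4 (83175172 to 83190216, plus strand) and Slfn3 (83191330 to 83215154, plus strand). The 3 lower members and Slfn9 lie in the part of the cluster that begins with Slfn5, and Slfn1, Slfn4 and Slfn3 follow one another beyond Slfn2. Slfn9 is thus a higher member between 2 lower ones. Inside the cluster the noncoding gene AI662270 had 71.6 ± 5.07 CPM in LFA1-hi and 69.4 ± 7.04 CPM in LFA1-lo (SD, n = 3 each; adjusted p = 0.774 in edgeR). Outside it, Nle1, which acts in ribosome assembly, had a log2 fold change of 0.48 (adjusted p = 0.356 in edgeR). The noncoding gene AI450353 was higher, at 2.68 ± 0.334 CPM in LFA1-hi and 0.747 ± 0.320 CPM in LFA1-lo (SD, n = 3 each; log2 fold change 1.83, SE 0.43, adjusted p = 0.0108 in edgeR), and it overlaps the annotated noncoding gene AA465934. The other neighbours, Fndc8, Unc45b, AA465934 and Snord7, were too low to be tested.

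**Figure D3:**
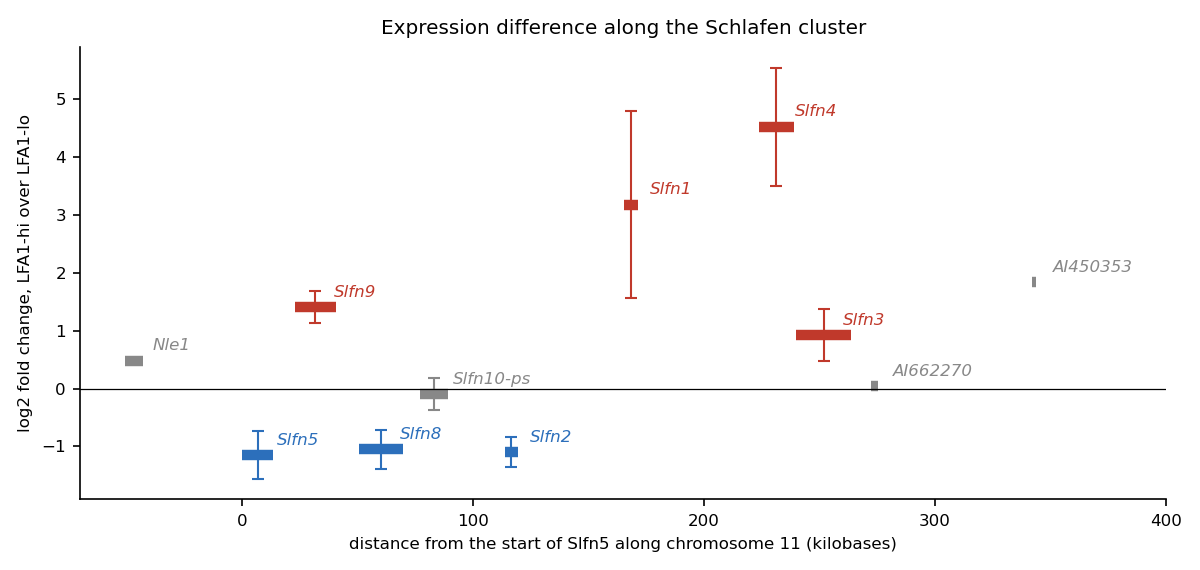
Log2 fold change (LFA1-hi over LFA1-lo) of the tested genes of the cluster against distance in kilobases from the start of Slfn5. Bar widths are gene lengths, error bars 95% intervals of the Schlafen rows, red and blue mark members higher and lower in LFA1-hi, and grey marks genes that are not members. Slfn5, Slfn8 and Slfn2 lie near -1 with Slfn9 above 0 between them, and Slfn1, Slfn4 and Slfn3 lie above 0.

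The promoter windows show how close some of these neighbours are. They run from 250 bases before to 50 after the annotated start (RefSeq, GRCm38.p6), and 7 of 7 members had at least 1 window. The core of the interferon-stimulated response element, GAAANNGAA on either strand, is in capitals in the windows of the 3 long members below, which are shown because all of them carry it. The Slfn5 window lies at chr11:82951852-82952151 (plus strand), that of Slfn8, the farther upstream of its 2 windows, at chr11:83020761-83021060 (minus strand), and that of Slfn9 at chr11:82991781-82992080 (minus strand). The Slfn5 window lies wholly inside the gene, beyond the gene start of 82951349 given above. Its positions are therefore counted from another annotated start.
Slfn5: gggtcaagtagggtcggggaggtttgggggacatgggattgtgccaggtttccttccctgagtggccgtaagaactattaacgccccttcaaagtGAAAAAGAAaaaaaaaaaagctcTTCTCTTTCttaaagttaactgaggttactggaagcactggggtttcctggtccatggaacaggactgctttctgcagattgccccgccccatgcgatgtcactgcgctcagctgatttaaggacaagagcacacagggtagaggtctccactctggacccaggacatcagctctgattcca
Slfn8: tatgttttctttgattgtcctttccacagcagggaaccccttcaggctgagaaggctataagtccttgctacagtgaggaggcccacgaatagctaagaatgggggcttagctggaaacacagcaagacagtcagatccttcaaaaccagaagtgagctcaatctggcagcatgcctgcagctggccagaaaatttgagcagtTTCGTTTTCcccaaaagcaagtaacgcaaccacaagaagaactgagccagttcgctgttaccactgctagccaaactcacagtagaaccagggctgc
Slfn9: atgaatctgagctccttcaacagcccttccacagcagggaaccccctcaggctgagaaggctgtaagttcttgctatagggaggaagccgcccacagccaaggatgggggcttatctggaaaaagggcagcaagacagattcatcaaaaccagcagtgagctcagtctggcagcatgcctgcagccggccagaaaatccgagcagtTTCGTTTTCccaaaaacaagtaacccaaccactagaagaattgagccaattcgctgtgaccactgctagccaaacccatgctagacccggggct
The core occurs 2 times in the Slfn5 window, beginning at -155 and -132 relative to the start, once in Slfn8, at -47, and once in Slfn9, at -44. Counted from the other annotated start of Slfn8 it begins at -135, so its position depends on the start used. In Slfn8 and Slfn9 the letters are the same, TTCGTTTTC, and the windows are 88.3% identical over 273 aligned bases. Slfn8 and Slfn9 nevertheless differed in opposite directions. None of the windows of Slfn1, Slfn2, Slfn3 and Slfn4 holds the core. The window of Slfn14, which is not a member and had 2 counts over the 6 libraries, holds it once, at -197. Of the 32851 promoter windows of this length in the table, 2812 (8.56%) hold the core. The exact letters TTCNNNGAA, the gamma-activated site, and GAGGAAGT, a site of the macrophage factor PU.1, are in none of the windows of the 7 members. They are in 8.30% and 3.20% of all windows. A match describes letters and is not evidence of binding, and the absence of a match says only that these letters are not in this window.

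The 4 members without the interferon core share a stretch instead, ACTTCCTGG, which was noticed on reading their windows. It begins at -74 in Slfn1, -55 in Slfn2, -42 in Slfn3 and -73 in Slfn4, relative to the start. It is shown with 12 bases on either side, from the plus strand.
Slfn1: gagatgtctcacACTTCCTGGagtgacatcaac
Slfn2: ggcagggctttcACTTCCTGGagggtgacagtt
Slfn3: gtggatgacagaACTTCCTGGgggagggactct
Slfn4: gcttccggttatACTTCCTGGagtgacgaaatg
The stretch occurs in 277 (0.843%) of the 32851 windows on either strand. Slfn2 differed from Slfn1, Slfn3 and Slfn4 in the direction of its difference between the groups while carrying the same letters. Read on the other strand, ACTTCCTGG holds the letters of GAGGAAGT, the PU.1 site searched for above, except its opening G, which is a C. That search counted exact letters only, and binding was not tested.

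The lower members, Slfn2, Slfn5 and Slfn8, had similar patterns over the 6 libraries. Likeness was measured as the root mean square difference of log2 CPM after subtracting each gene's mean, over the 6 libraries. It includes the difference between the groups and is a description. Among the 11691 other tested genes, the nearest to Slfn8 was Slfn2 (0.0740). Slfn2 was nearest to Samhd1, an enzyme that breaks down deoxynucleotides, at 0.0544, and Slfn8 was next, at 0.0740. Slfn5 was nearest to Parp14, an interferon-inducible ADP-ribosyltransferase, at 0.0938, and Slfn2 ranked 5th for it at 0.145. The second gene for Slfn8 was Ikbke, a kinase of the innate immune response, at 0.0788. Tet3, an enzyme of DNA demethylation, was the third for Slfn2 at 0.0908. In these patterns LFA1-lo library 2 was highest, with LFA1-lo library 1 lowest of its group except for Tet3, where LFA1-lo library 3 was.

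The higher members were each nearer to other genes than to one another. Slfn2 and Slfn5 were also nearer to a gene outside the family than to any member. Since the measure includes the group difference, members with differences of unlike size lie apart. For Slfn1 and Slfn4 it rests on LFA1-lo libraries with about 5 counts or fewer. Slfn9 was nearest to Chaf1b, a subunit of chromatin assembly factor 1, at 0.0730, and to the histone gene Hist1h2ac at 0.0752, and its nearest member was Slfn3, at rank 270 with 0.262. Slfn3 was nearest to Cd40, a costimulatory receptor, at 0.0991 and to Pop4, a subunit of RNase P, at 0.106. Slfn1 was nearest to Bmx, a Tec-family kinase, at 0.264 and to the lectin gene Clec2i at 0.353. Slfn4 had no near match, with Raet1d, a ligand of the NKG2D receptor, at 0.562 and Mcemp1, a membrane protein of mast cells and myeloid cells, at 0.612.

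**Figure D4:**
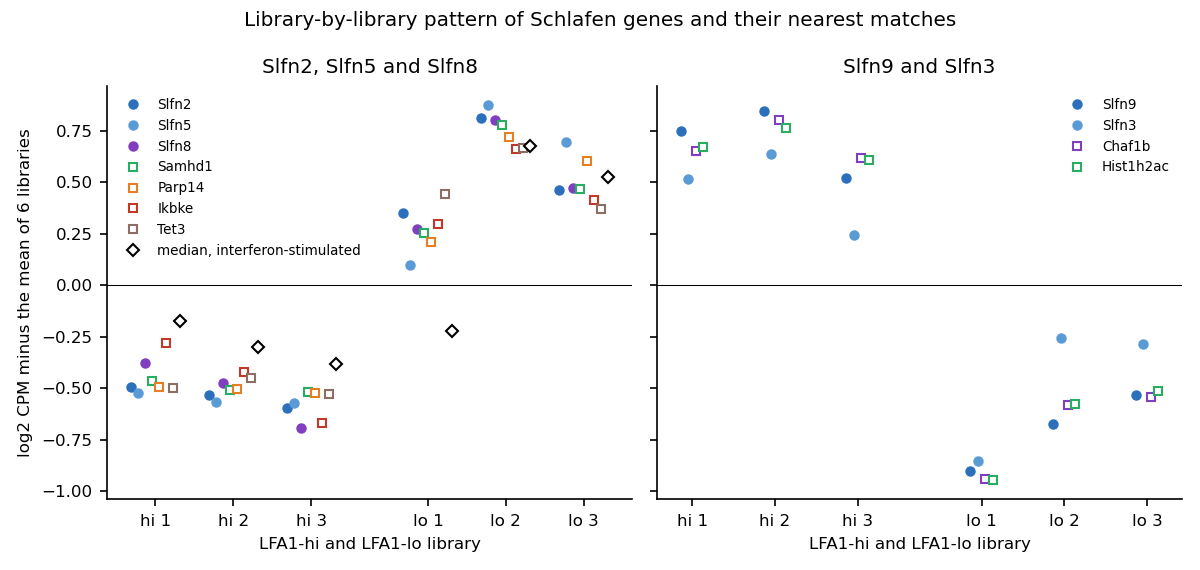
Log2 CPM minus the gene's mean over 6 libraries, by library. Left, Slfn2, Slfn5 and Slfn8 (filled circles) with the genes nearest to them (open squares) and the median of the interferon-stimulated effectors (open diamonds). Right, Slfn9 and Slfn3 with Chaf1b and Hist1h2ac. In LFA1-lo library 1 the effector median, at -0.22, lies among its LFA1-hi values, and the effector Parp14, at 0.21, lies above 0, as do Slfn2, at 0.35, Slfn5, at 0.10, and Slfn8, at 0.27.

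Because interferon induces many of these genes, the list of interferon receptors and signalling genes was set beside them. Of 20 tested genes, 15 were lower in LFA1-hi macrophages, against 15.6% lower among all tested genes. The median log2 fold change was -0.43, against -0.005 over all tested genes. Irf1, a transcription factor induced by interferon gamma, averaged 31.0 ± 1.96 CPM in LFA1-hi and 72.5 ± 10.3 CPM in LFA1-lo (SD, n = 3 each), a log2 fold change of -1.23 (adjusted p = 0.000116 in edgeR). Receptor chains of both interferon types were lower, Ifngr1 with a log2 fold change of -1.10 (adjusted p = 0.000242 in edgeR) and Ifnar1 with -0.69 (adjusted p = 0.000154 in edgeR). Stat2, a signal carrier of type I interferon, had -0.62 (adjusted p = 0.0116 in edgeR). Without LFA1-hi library 1, 2 or 3, the number of lower genes was 8, 8 and 7, and it was 8 on log2 FPKM. Of 10 interferon genes, 9 had no count in any library, and Ifnk, the only one detected, had at most 0.537 CPM.

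Of 39 tested interferon-stimulated effectors of 40 listed, 17 were lower in LFA1-hi macrophages, against 15.6% lower among all tested genes. Their median log2 fold change was -0.64. Ifit1bl1, Ifit3b, Ifit3 and Ifit1, of the family of interferon-induced proteins that bind viral RNA, had the largest differences. Ifit3 had 10.9, 7.64 and 6.10 CPM in LFA1-hi libraries, against 19.5, 77.0 and 53.1 CPM in LFA1-lo libraries, a log2 fold change of -2.60 (adjusted p = 0.0117 in edgeR). That of Ifit1 was -2.23 (adjusted p = 0.0144 in edgeR), that of Ifit3b -4.02 (adjusted p = 0.00966 in edgeR) and that of Ifit1bl1 -5.16 (adjusted p = 0.00491 in edgeR), the last at 0.112 ± 0.148 CPM in LFA1-hi and 4.40 ± 3.01 CPM in LFA1-lo (SD, n = 3 each). The effectors' summed level was 1867, 1731 and 1664 CPM in LFA1-hi libraries, against 2000, 3267 and 2969 CPM in LFA1-lo libraries, so LFA1-lo library 1 was close to the LFA1-hi range. Single effectors differed in this: in LFA1-lo library 1, Ifit3 and Parp14 were above each of their LFA1-hi values, as were Slfn2, Slfn5 and Slfn8. Without LFA1-lo library 1 the number of lower effectors was 30, without LFA1-lo library 2 it was 9, and without LFA1-hi library 2 or 3 or LFA1-lo library 3 it was 11, while limma voom called 9 lower.

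**Figure D5:**
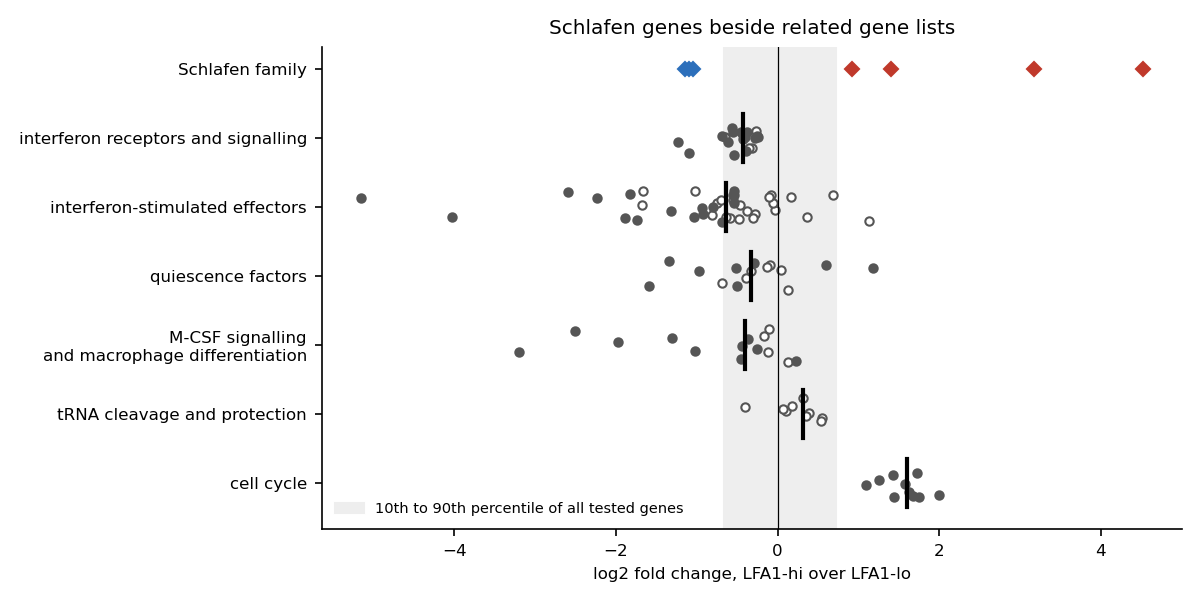
Log2 fold change (LFA1-hi over LFA1-lo) of the 7 Schlafen members (diamonds, red higher and blue lower) and of the tested genes of 6 lists. Filled circles passed an adjusted p below 0.05 in edgeR, open circles did not, black ticks are list medians, and the grey band runs from -0.66 to 0.72, the 10th to 90th percentile of all tested genes.

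The Schlafen family is known for its part in quiescence, so genes that hold cells out of division were listed as well. Of 15 tested, 6 were lower and 2 higher in LFA1-hi macrophages, and the median log2 fold change was -0.33. Among all tested genes 15.6% were lower and 16.1% higher, so the 2 higher genes do not exceed that share. Btg2 and Btg1, which slow proliferation, had log2 fold changes of -1.59 (adjusted p = 0.000294 in edgeR) and -1.34 (adjusted p = 7.46e-05 in edgeR), and Cdkn1b, an inhibitor of cyclin-dependent kinases, had -0.98 (adjusted p = 0.00907 in edgeR). Cdkn2c, another such inhibitor, was higher, with 1.19 (adjusted p = 0.00279 in edgeR). Without LFA1-hi library 1, LFA1-hi library 3 or LFA1-lo library 1 the number of lower genes was 3, as it was on log2 FPKM.

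All 10 cell cycle genes tested were higher in LFA1-hi macrophages, against 16.1% higher among all tested genes, with a median log2 fold change of 1.6. Their summed level was 2442, 2587 and 2337 CPM in LFA1-hi libraries, against 795.3, 696.4 and 1098 CPM in LFA1-lo libraries. Rrm2, a subunit of ribonucleotide reductase, had a log2 fold change of 1.99 (adjusted p = 9.81e-06 in edgeR), and Tyms, thymidylate synthase, had 1.67 (adjusted p = 2.62e-05 in edgeR). Birc5, which acts in chromosome segregation, had 1.75 (adjusted p = 0.000178 in edgeR), and the mitotic cyclin Ccnb1 had 1.73 (adjusted p = 0.00279 in edgeR). The count of 10 higher genes held in each of 18 alternatives. Slfn9, Slfn3, Slfn4 and Slfn1 were higher in the same libraries, and Slfn2, Slfn5 and Slfn8 were lower. A link between the members and the cell cycle genes was not tested.

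Of 14 tested genes of M-CSF signalling and macrophage differentiation, of 15 listed, 9 were lower in LFA1-hi macrophages. Among all tested genes 15.6% were lower. The median log2 fold change of the list was -0.40. Csf1, which encodes M-CSF itself, had 3.09 ± 1.36 CPM in LFA1-hi and 28.8 ± 11.04 CPM in LFA1-lo (SD, n = 3 each), a log2 fold change of -3.21 (adjusted p = 0.000689 in edgeR). Egr1 and Egr2, early response transcription factors, had -2.50 (adjusted p = 0.000152 in edgeR) and -1.98 (adjusted p = 0.0102 in edgeR), and the transcription factor Mitf had -1.30 (adjusted p = 0.000299 in edgeR).

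Slfn2 shields transfer RNAs from angiogenin-type nucleases, and 9 of 10 listed genes of transfer RNA cleavage and protection were tested. None of the 9 passed the threshold in edgeR, 2 had an unadjusted p below 0.05, both higher in LFA1-hi, and DESeq2 and limma voom called 0. Scaling by library totals called 2 higher, and log2 FPKM called 3, as did leaving out LFA1-lo library 2. The median log2 fold change was 0.31, and 0.17 without LFA1-lo library 2.

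The macrophage identity of the cells was checked by markers. The counts of markers called stand beside 16.1% higher and 15.6% lower in LFA1-hi among all tested genes. Summed macrophage markers stood at 14180 to 16090 CPM in LFA1-hi libraries and 17410 to 21860 CPM in LFA1-lo libraries, with 4 of 8 lower in LFA1-hi. Slfn genes are also used by T cells, whose markers Cd3d, Cd3e and Cd3g were at 0 in all 6 libraries. Of 7 T cell markers only 2, Cd28 and Cd4, could be tested, and both were lower in LFA1-hi. The 7 markers summed to 69.4 to 81.3 CPM in LFA1-hi and 94.7 to 165.2 CPM in LFA1-lo, nearly all of it Cd28. Neutrophil markers summed to 106.1 to 132.6 CPM in LFA1-hi and 213.1 to 296.2 CPM in LFA1-lo, with 5 of 7 tested lower. The most abundant, Mmp8, averaged 94.25 CPM in LFA1-hi and 102.1 CPM in LFA1-lo. Csf3r averaged 22.46 CPM in LFA1-hi and 54.52 CPM in LFA1-lo. Mmp9 averaged 0.945 CPM in LFA1-hi and 64.07 CPM in LFA1-lo, with 156.7 CPM in LFA1-lo library 2. Ltf and Camp averaged 0.266 and 0.0798 CPM in LFA1-hi and 4.02 and 0.603 CPM in LFA1-lo, Camp near the detection limit. Cxcr2, also near it, went the other way, at 0.450 CPM in LFA1-hi and 0.144 CPM in LFA1-lo. The part of these markers in the Schlafen differences was not tested. Summed natural killer cell markers were at most 0.418 CPM in any library, with Ncr1, Klrd1, Gzma, Gzmb and Prf1 at 0. Dendritic cell markers summed to 72.5 to 77.8 CPM in LFA1-hi and 104.8 to 142.4 CPM in LFA1-lo, nearly all of it Tcf4, with Flt3 at 0. Erythroid and megakaryocyte markers, nearly all of it Pf4, summed to 257.6 to 289.9 CPM in LFA1-hi and 224.3 to 300.3 CPM in LFA1-lo, and B cell markers to at most 3.70 CPM, with Pax5 at 0. Monocyte markers summed to 145.6 to 203.0 CPM in LFA1-hi and 146.9 to 222.7 CPM in LFA1-lo, most of it F13a1, and of 6 tested 2 were higher and 2 lower in LFA1-hi. Ccr2, the chemokine receptor of classical monocytes, averaged 3.01 CPM in LFA1-hi and 31.7 CPM in LFA1-lo, and Nr4a1 averaged 4.01 CPM in LFA1-hi and 26.1 CPM in LFA1-lo. Cx3cr1 averaged 62.8 CPM in LFA1-hi and 22.7 CPM in LFA1-lo, and Treml4 averaged 12.9 CPM in LFA1-hi and 3.72 CPM in LFA1-lo. Progenitor markers summed to 25.8 to 34.3 CPM in LFA1-hi and 21.3 to 28.6 CPM in LFA1-lo, with 1 of 5 tested higher and 2 lower in LFA1-hi. The part of these markers in the Schlafen differences was not tested either.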

How the data were processed

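Ribosomal RNA was depleted enzymatically before sequencing, per the labels' protocols. Trim Galore, RSEM, bcl2fastq and the build GRCm38 are named in the submitters' processing notes. Versions, annotation release and strand setting: not given in the sources used here. Per the file headers, the authors deposited RSEM gene tables with expected counts, which are estimated reads per gene and not normalized, and with TPM and FPKM values scaled by effective length and library size.

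Expected counts were rounded, filtered with filterByExpr (10 counts, about 0.586 CPM, in 3 libraries and a total of 15), scaled by TMM and tested in edgeR 4.0.16 on R 4.3.3, with adjustment over all 11692 tested genes. TPM levels are as deposited, and CPM were computed on TMM-scaled library sizes, except the CPM of 3 counts, which uses library totals. The procedure was tested on simulated data. Alternatives were other scalings, filters, tools (DESeq2 1.42.0, limma 3.58.1), log2 of TPM + 0.1, TPM + 1 or FPKM + 0.1, a replicate block and leaving out each library. Mean TPM without each replicate was added after seeing the data. The members and lists were chosen with earlier results of these data known.

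The genes named are all Schlafen rows, up to 4 called genes of each list with the largest change, the 2 non-member genes nearest in pattern to each member, and the 3 nearest neighbours on each side of the cluster. Others are marked or are markers, and some genes are not reported here. Protein identity had been planned and was replaced by local alignment of GENCODE M21 transcripts matched by RefSeq accession, since protein sequences were not used here. Promoter windows are from RefSeq (GRCm38.p6), aligned with Biopython 1.88.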

Additional observations from a re-analysis of the deposited data

How the results depend on the processing

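The members were called 4 higher and 3 lower under each of the 18 alternatives, and 7 of 7 did not overlap wherever that was recomputed. Apart from small shifts in scaling, leaving out a library cannot make separate groups overlap. Those settings therefore do not test the lack of overlap. Over all tested genes 31.7% were called and 47.8% did not overlap, and since the members were chosen with this contrast known, nothing is read from their counts. Of 126 member fold changes under alternatives, 121 stayed within the spread between libraries, 5 moved and 0 reversed. Leaving out a library shifts a group mean by only part of that spread, and another scaling shifts all genes nearly alike. Many of these values could therefore hardly move, and the count is not a measure of stability. The movers were Slfn4 on log2(TPM + 0.1), log2(TPM + 1) and log2(FPKM + 0.1), at 3.68, 1.66 and 3.27, and Slfn1 on log2(TPM + 1), at 1.17, and without LFA1-lo library 1, at 3.95; a pseudocount shrinks low genes by construction. Leaving out a library gave log2 fold changes of 2.64 to 3.95 for Slfn1, -1.19 to -0.95 for Slfn2, 0.75 to 1.03 for Slfn3, 4.08 to 4.84 for Slfn4, -1.34 to -0.98 for Slfn5, -1.16 to -0.89 for Slfn8 and 1.32 to 1.5 for Slfn9. For list counts, the cause of a move was not tested. Transfer RNA genes called higher were 2 with library totals, 3 on log2 FPKM and 0 to 3 without a library, and their median log2 fold change was 0.17 without LFA1-lo library 2. Effectors called higher were 1 with DESeq2, limma voom or the replicate block and 0 to 2 without a library, and effectors called lower were 9 with limma voom and 9 to 30 without a library. M-CSF genes called higher were 0 on both log2 TPM scales and with the replicate block, and 0 to 1 without a library. Interferon signalling genes called lower were 8 on log2 FPKM and 7 to 16 without a library, and quiescence genes called lower were 3 on log2 FPKM and 3 to 6 without a library. The labels do not say whether the replicate numbers pair the libraries. Deviations of same-numbered libraries correlated at 0.037, 0.018 and -0.072. These values show no shared deviation, but they cannot exclude a common origin of same-numbered libraries. With the number as a replicate block 3253 genes were called, against 3705 without it. Without a library, between 2288 and 5032 genes were called, the fewest without LFA1-hi library 2 and the most without LFA1-lo library 2. Depth limits Slfn1 and Slfn4 in LFA1-lo, where counts per library were at most about 5.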
